A study of Mus musculus with 6 samples.

Results

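Hepcidin and the genes through which liver cells sense, take up and release iron were followed in the livers of adult male C57BL offspring. The 10 genes are Hamp, Hamp2, Trf, Tfrc, Tfr2, Hfe, Slc40a1, Bmp6, Id1 and Smad7. They were chosen by their role in iron handling, at a time when the lower signal of Hamp between these same groups was already known. The changes of these genes are therefore given as a description of these arrays and are not independent evidence of a change in iron handling. A probe set that the platform annotation ties to exactly 1 gene was found for 9 of the 10 genes, 1 probe set each, among 22180 such genes in all. The only probe set of Trf, which encodes the iron carrier transferrin, is shared with another gene, so Trf is not analysed here.

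The livers were taken at 32 weeks of age. Total RNA was made into cDNA, and expression was measured on Affymetrix Mouse Gene 2.0 ST arrays. In the CR-CD group (3 arrays), dams ate a chromium-restricted diet during pregnancy and lactation, and the pups received the control diet from weaning. In the CD-CD group (3 arrays), dams and pups ate the control diet throughout. The diet was given to the dams, and neither the labels nor the methods say whether the 3 arrays of a group came from separate animals or litters, so every p here measures only the spread among these arrays.

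Hepcidin, the product of Hamp, is a peptide hormone that hepatocytes secrete. It binds ferroportin, the iron exporter encoded by Slc40a1, and causes its degradation, which keeps iron inside macrophages, enterocytes and hepatocytes. Hepatocytes raise Hamp when iron is plentiful, through BMP ligands, the co-receptor hemojuvelin and SMAD transcription factors, with a contribution from HFE and transferrin receptor 2, and when inflammation activates STAT3 through interleukin 6. Mice carry a second gene, Hamp2, whose peptide is not known to act on iron in the way that hepcidin does.

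The promoter windows of both hepcidin genes are shown because the genes are close copies whose signals behaved differently on these arrays. The sequences are those of RefSeq (GRCm38.p6), from 250 bases before the gene start to 50 bases after it, on the minus strand of chromosome 7 (chr7:30943980-30944279 for Hamp and chr7:30924132-30924431 for Hamp2). Capitals mark GGCGCC, the core of the BMP-responsive element, and TTCTTGGAA, the STAT3 site.
Hamp: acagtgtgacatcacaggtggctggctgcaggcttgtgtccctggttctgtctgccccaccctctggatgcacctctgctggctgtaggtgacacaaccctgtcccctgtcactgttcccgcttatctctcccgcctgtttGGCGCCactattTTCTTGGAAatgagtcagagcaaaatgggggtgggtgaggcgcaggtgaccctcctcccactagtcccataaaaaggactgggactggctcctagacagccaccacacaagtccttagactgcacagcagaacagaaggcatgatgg
Hamp2: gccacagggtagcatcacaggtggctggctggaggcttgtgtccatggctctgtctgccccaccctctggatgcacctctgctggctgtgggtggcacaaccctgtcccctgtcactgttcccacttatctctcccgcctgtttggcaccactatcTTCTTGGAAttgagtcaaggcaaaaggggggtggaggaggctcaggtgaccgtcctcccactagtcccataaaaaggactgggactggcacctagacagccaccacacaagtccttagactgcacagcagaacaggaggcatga
In the Hamp window GGCGCC begins 109 bases before the gene start and TTCTTGGAA begins 97 bases before it, and these matches do not overlap. Hamp2 holds TTCTTGGAA, beginning 94 bases before its start, and lacks GGCGCC on either strand. Over the 297 base pairs that a global alignment sets side by side, 276 were identical (92.9%) and 21 differed. The only difference inside a marked stretch was G145A, with the Hamp base first, the position counted from 1 at the 5′ end of the Hamp window, and the Hamp2 base last. Of 32544 promoter windows of this length, 11.9% hold GGCGCC and 0.421% hold TTCTTGGAA on either strand. A match is only a match of letters. Among the other members and the target genes Id2, Id3, Smad6 and Atoh8 that had a window and were searched, GGCGCC was found in Tfrc and Id2, and TTCTTGGAA in none. Smad7 and Trf were not searched, and Id1 and Slc40a1 had no window, so nothing is known here of matches in these 4 genes.

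The deposited values are log2 signals, on which a difference of 1 is a doubling of signal. Each probe set responds on its own scale, so the abundance of 1 gene is not set against that of another. The median over genes is used only as a rough mark of dim signals. Summed marker signals are compared only between arrays, and the brightest markers weigh most in them. Array medians ranged from 5.48 to 5.54, and the highest value in the table was 13.9. Groups were compared with limma over all 22180 genes, and p was adjusted over all of them by the Benjamini-Hochberg method, with a threshold of 0.05. Values of 428 of the 33793 probe sets are written with more decimals than single-precision numbers need, and this format is called longer below. Group means differed 1.5-fold or more in 427 of these 428 probe sets, and in 132 of the other 33365. Of the 329 genes past the adjusted p, 315 carried longer-format values. Hfe and Smad6 are among them, and the sources used here do not say why these values differ in format.

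The hepcidin gene Hamp (probe set 17489363) gave 12.49, 12.05 and 12.28 in CR-CD livers, against 12.91, 13.11 and 13.07 in CD-CD livers. The highest CR-CD array lay below the lowest CD-CD array, and no Hamp value was in the longer format. The means were 12.27 ± 0.22 in CR-CD and 13.03 ± 0.11 in CD-CD (SD, n = 3 each). The log2 fold change was -0.76 (standard error 0.12, 95% interval -1.05 to -0.47, adjusted p = 0.0307 from limma), a signal 1.69-fold lower in CR-CD. Hamp ranked 319th of all genes by p and 11th among the genes without longer-format values. With those probe sets left out, the unadjusted p was again 4.41e-04, but the adjusted p from limma was 0.884. Then 0 of 21878 genes passed and 1091 had an unadjusted p under 0.05, about the share that this threshold gives without any difference. Of the 428 probe sets left out, 427 differed 1.5-fold or more. Leaving them out thus removes most of the large differences by construction, and nothing is read from the remaining share. The adjusted p of 0.0307 for Hamp thus depended on having the longer-format probe sets in the adjustment. With replicate number as a block, a pairing that the labels do not give, the adjusted p from limma was 0.0729. It was 0.293 by the methods' t-test. It also missed the threshold without CR-CD replicate 2 (0.0783) or 3 (0.161) and without CD-CD replicate 2 (0.154) or 3 (0.176), and the log2 fold change stayed between -0.93 and -0.65 under every alternative run.

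Hamp2 (probe set 17489357) behaved differently. Its signal was 5.45, 8.49 and 9.12 in CR-CD, against 5.75, 9.26 and 8.54 in CD-CD. Replicate 1 was low in both groups and the groups overlapped over almost their whole range. Both replicate 1 signals lay below the median over genes, which was 5.78 to 5.84 across the arrays. The log2 fold change was -0.16 with a standard error of 1.18 and a 95% interval of -2.96 to 2.63. With replicate number as a block, a pairing that the labels do not give, the standard error was 0.24 and the interval -0.76 to 0.43. The differences between arrays numbered 1, 2 and 3 were -0.31, -0.77 and 0.58. How far each probe set also binds the other transcript was not tested.

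**Figure D1:**
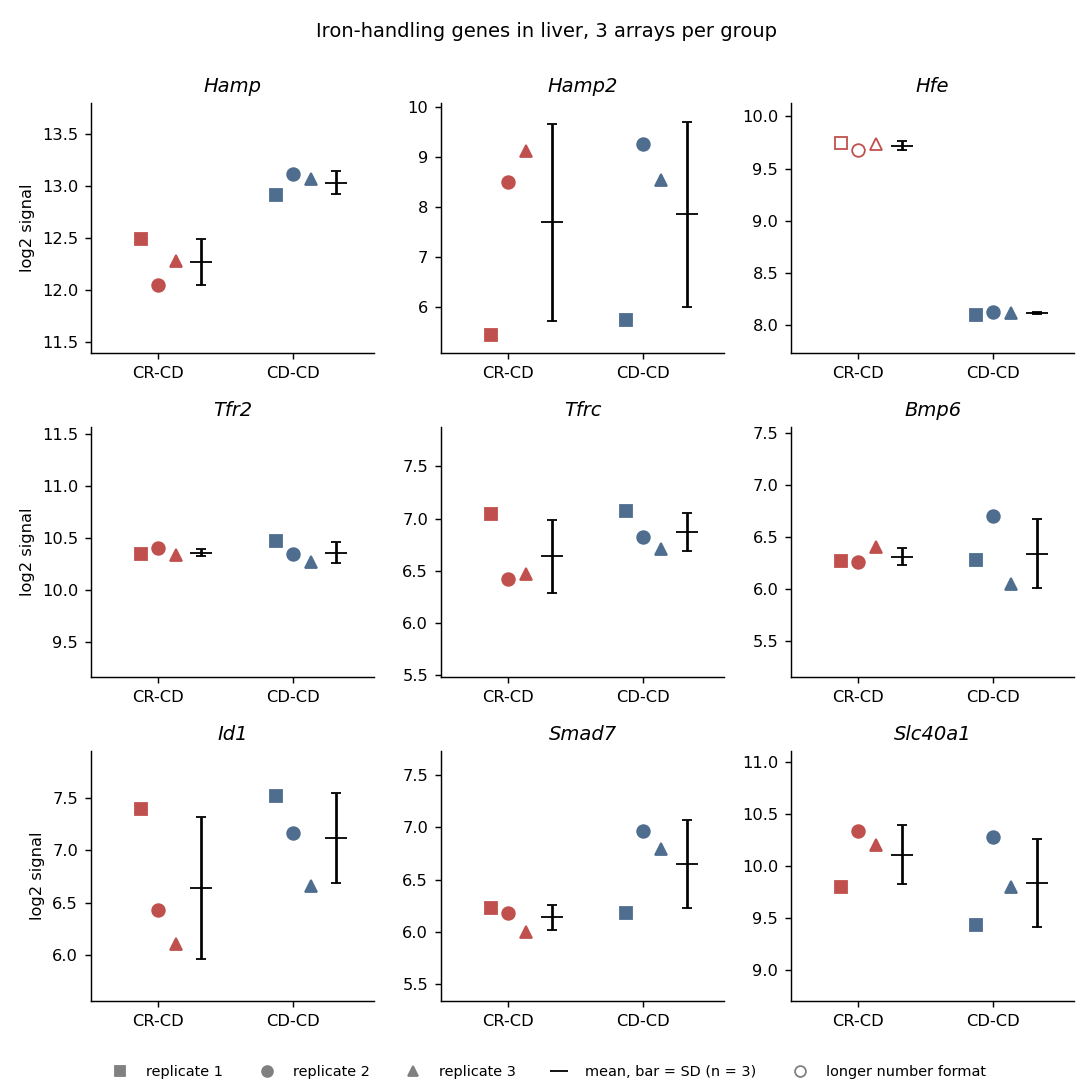
Log2 signal of the 9 measured iron-handling genes on each array, CR-CD on the left and CD-CD on the right of each panel, with the mean and SD of 3 arrays beside the points. Every panel spans 2.4 log2 units except Hamp2, which spans 5, and open symbols mark longer-format values. Hamp is lower on all 3 CR-CD arrays than on any CD-CD array, Hfe is higher on all 3, and Hamp2 is low on replicate 1 of both groups.

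Among the upstream sensors of iron, Hfe, which encodes a membrane protein of the hepatocyte that is mutated in hereditary hemochromatosis, gave 9.75, 9.68 and 9.74 in CR-CD, against 8.10, 8.13 and 8.12 in CD-CD. All 3 CR-CD values were in the longer format and none of the CD-CD values was. The groups lay far apart, and the log2 fold change was 1.61 (standard error 0.06, adjusted p = 2.69e-05 from limma), which is 3.04-fold higher in CR-CD. Hfe had no other probe set, so its change could not be tested on values of the usual format.

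Tfr2, transferrin receptor 2, which senses iron-laden transferrin on hepatocytes, had the same mean in both groups. Its signal was 10.35, 10.40 and 10.34 in CR-CD, against 10.47, 10.35 and 10.27 in CD-CD, with a 95% interval of the log2 difference from -0.18 to 0.18. Tfrc, the receptor through which most cells take up transferrin iron, gave 7.04, 6.42 and 6.47 in CR-CD and 7.07, 6.82 and 6.71 in CD-CD. The groups overlapped through CR-CD replicate 1, and the log2 fold change of -0.22 had an interval of -0.65 to 0.20. Bmp6, the BMP ligand that liver endothelial cells make in response to iron, gave 6.27, 6.26 and 6.40 in CR-CD and 6.28, 6.70 and 6.05 in CD-CD. Its log2 fold change was -0.03 (95% interval -0.41 to 0.34), and the CD-CD arrays spanned the CR-CD arrays.

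Id1 and Smad7 are direct targets of BMP and SMAD signaling in the liver, and Smad7 encodes an inhibitor of the pathway that also restrains hepcidin. Id1 gave 7.40, 6.43 and 6.10 in CR-CD, against 7.52, 7.17 and 6.66 in CD-CD. The lowest values were those of CR-CD replicates 2 and 3, and CR-CD replicate 1 was above 2 of the CD-CD arrays. The log2 fold change was -0.47 with a 95% interval of -1.31 to 0.37. With the replicate block the interval was -0.79 to -0.15 (adjusted p = 0.375 from limma). The CR-CD minus CD-CD differences between same-numbered arrays were -0.12, -0.74 and -0.57. The labels do not match these arrays, so nothing is read from this interval or these differences. Smad7 gave 6.23, 6.18 and 6.0 in CR-CD, against 6.18, 6.97 and 6.79 in CD-CD. CD-CD replicate 1 lay among the CR-CD arrays while the other CD-CD arrays lay above them. The log2 fold change was -0.51 (standard error 0.20, adjusted p = 0.741 from limma). Without CD-CD replicate 1 the log2 fold change was -0.75 (adjusted p = 0.0194), and without both replicate 1 arrays, an alternative chosen after seeing the data, it was -0.79 (adjusted p = 0.0219).

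Slc40a1, which encodes ferroportin, gave 9.80, 10.34 and 10.20 in CR-CD, against 9.44, 10.28 and 9.80 in CD-CD. The groups overlapped, and the log2 fold change of 0.27 had a 95% interval of -0.27 to 0.81. With the replicate block the interval was 0.03 to 0.51 (adjusted p = 0.55 from limma), and the differences between same-numbered arrays were 0.36, 0.06 and 0.40. Nothing is read from these values either, as the labels do not match the arrays. Hepcidin acts on the ferroportin protein, which these arrays do not measure.

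Of the 9 measured genes, 1 was higher in CR-CD (Hfe) and 1 lower (Hamp) at the adjusted p, against 0.784% of all genes higher and 0.699% lower. The same genes passed a fold change of at least 1.5 with an unadjusted p of at most 0.05, the thresholds named in the methods, which 0.911% of all genes passed higher in CR-CD and 0.757% lower. They were also the genes whose groups did not overlap, against 5.63% of all genes higher and 5.77% lower. Since the genes were chosen with this contrast known, nothing is read from these counts. The median log2 fold change of the 9 genes was -0.16, with 7 below 0 and 2 above, and that of all genes was 0.00.

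**Figure D2:**
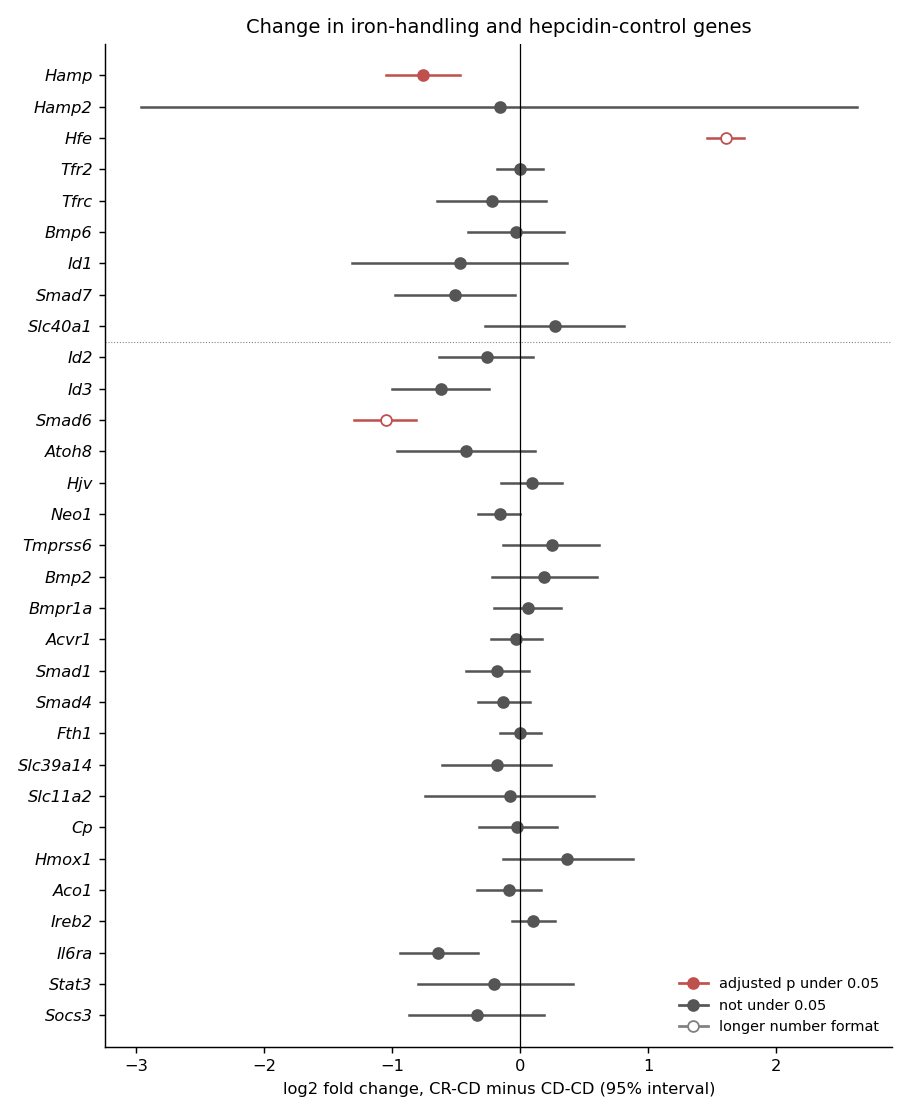
Log2 fold change (CR-CD minus CD-CD) with its 95% interval from limma, for the 9 measured genes above the dotted line and for related genes named by their role below it. Red marks an adjusted p under 0.05 and open symbols longer-format values. Hamp, Hfe and Smad6 are the only red points, and Hfe and Smad6 are open.

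A wider list held 29 further genes of the BMP, hemojuvelin and SMAD route to hepcidin, all of them measured. At the adjusted p from limma 0 were higher and 1 was lower in CR-CD, 4 had an unadjusted p under 0.05, and the methods' t-test called 0 at its adjusted p. At the thresholds of the methods 0 were higher and 2 were lower. The median log2 fold change was -0.07, with 18 genes below 0 and 11 above. Groups did not overlap for 4 genes, all lower in CR-CD (Smad6, Id3, Furin and Neo1), where 5.77% of all genes were lower without overlap. The 4 genes with an unadjusted p under 0.05 (Smad6, Id3, Furin and Smad9) were also lower, and 3.12% of all genes were lower with such a p and 0.757% by the thresholds of the methods.

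The target genes of the pathway are described together with Id1 and Smad7. Id3, a partner of Id1 in blocking basic helix-loop-helix factors, gave 7.75, 7.43 and 7.19 in CR-CD, against 7.94, 8.30 and 7.99 in CD-CD. The groups did not overlap, and the log2 fold change was -0.62 (standard error 0.16, adjusted p = 0.308 from limma), past the thresholds of the methods. Id3, like Hamp, was known to differ when the lists were chosen. Smad6, an inhibitory SMAD, gave 6.39, 6.64 and 6.26 in CR-CD, against 7.49, 7.45 and 7.51 in CD-CD. The log2 fold change was -1.05 (standard error 0.10, adjusted p = 0.00178 from limma), and all 3 CD-CD values were in the longer format, with no CR-CD value in it. The methods' t-test gave Smad6 an adjusted p of 0.0568. Atoh8, a transcription factor that acts on the Hamp promoter, gave 8.03, 7.35 and 7.10 in CR-CD, against 8.10, 7.79 and 7.85 in CD-CD. The groups overlapped through CR-CD replicate 1, with a log2 fold change of -0.42 and a 95% interval of -0.96 to 0.12. Id2 gave 10.34, 10.84 and 10.83 in CR-CD, against 10.83, 11.12 and 10.85 in CD-CD, with a log2 fold change of -0.26 (95% interval -0.63 to 0.10). All 6 had a log2 fold change below 0, as had 10936 of the 22180 genes, and they were picked from the pathway by their role with part of these results known. Bambi, an inhibitory pseudoreceptor that BMP signaling also induces, and Id4 had 0.07 and -0.05. Of the 6, only Smad6, with its longer-format values, passed the adjusted p.

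**Figure D3:**
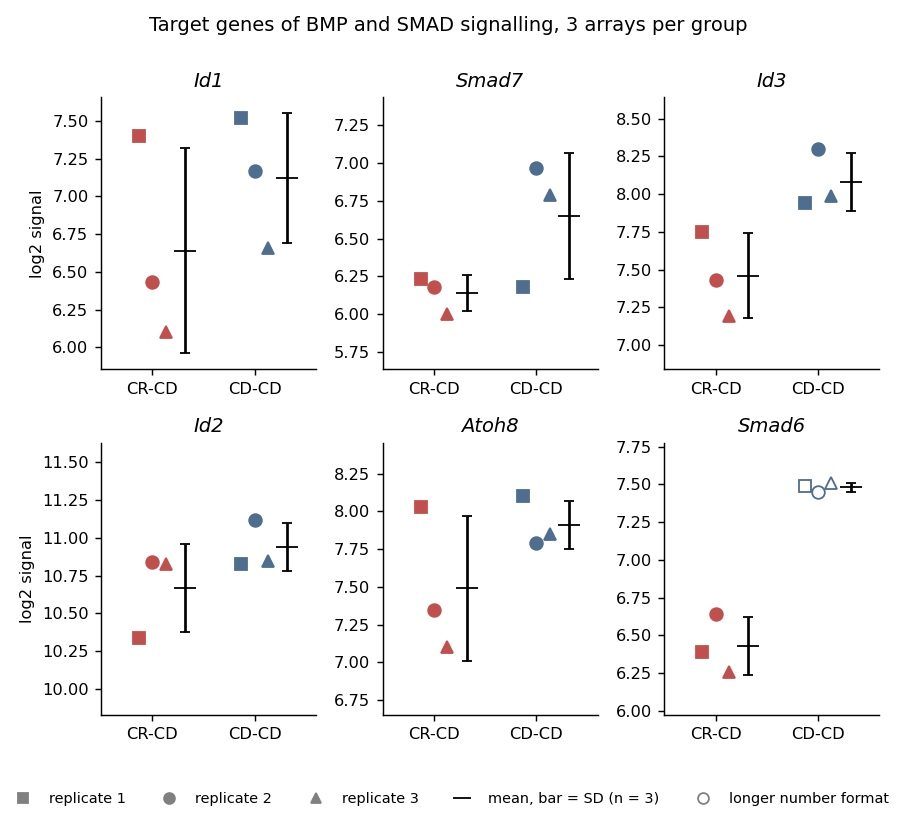
Log2 signal of 6 target genes of BMP and SMAD signaling on each array, CR-CD on the left and CD-CD on the right, with the mean and SD of 3 arrays beside the points. Each panel spans 1.8 log2 units. The groups are apart for Id3 and Smad6, where the CD-CD values of Smad6 are in the longer format, and overlap for Id1, Smad7, Id2 and Atoh8.

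The ligands, receptors and signal carriers upstream of these targets did not pass the adjusted p. Bmp2, the other endothelial BMP ligand, had a log2 fold change of 0.19 (95% interval -0.22 to 0.60), and the receptors Bmpr1a and Acvr1 had 0.06 and -0.03. Hjv, which encodes hemojuvelin, had 0.09 (95% interval -0.15 to 0.33). Tmprss6, the protease that cleaves hemojuvelin and so lowers hepcidin, gave 10.07, 10.47 and 10.43 in CR-CD, against 9.80, 10.26 and 10.17 in CD-CD, a log2 fold change of 0.25 (95% interval -0.13 to 0.62). Smad1 and Smad4, which carry the signal to the nucleus, had -0.18 and -0.13, and the related Smad5 and Smad9, named after their values were seen, had 0.11 and -0.49. For Smad9 the unadjusted p was 0.0488 and the adjusted p from limma 0.778. Furin, a protease that cuts prohepcidin and hemojuvelin, gave 9.78, 9.76 and 9.87 in CR-CD, against 10.11, 10.06 and 9.91 in CD-CD, and the log2 difference was -0.23 (adjusted p = 0.674 from limma). Neo1, the hemojuvelin-binding receptor neogenin, gave 7.28, 7.29 and 7.28 in CR-CD, against 7.50, 7.50 and 7.35 in CD-CD, without overlap, and the log2 fold change was -0.16 (adjusted p = 0.789 from limma).

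Among 27 genes of iron uptake, storage, export and sensing, 24 were measured, and 0 passed the adjusted p or the thresholds of the methods in either direction. In the limma fit 0 of them had an unadjusted p under 0.05, and the methods' t-test called 0 at the adjusted p. Their log2 fold changes ran from -0.29 to 0.25, with a median of 0.00. Fth1, the heavy chain of the iron store ferritin, gave 12.83, 12.82 and 12.88 in CR-CD, against 12.90, 12.76 and 12.87 in CD-CD (95% interval of the log2 difference -0.16 to 0.16). Aco1 and Ireb2, the iron-regulatory proteins that control ferritin and transferrin receptor messages, had log2 fold changes of -0.09 and 0.10. The importers Slc39a14 and Slc11a2 had -0.18 and -0.08, and Cp, the plasma ferroxidase ceruloplasmin, had -0.02. The intervals of all 6 genes included 0.

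Of 22 heme-handling genes, 21 were measured, and 0 passed the adjusted p from limma, the adjusted p of the methods' t-test or the thresholds of the methods. An unadjusted p under 0.05 was found for 3, all lower in CR-CD, namely the heme synthesis enzyme Cpox (log2 fold change -0.46), the heme transporter Flvcr2 (-0.23) and Lrp1 (-0.31), the receptor for heme bound to hemopexin, which were picked after their values were seen. Over all genes 3.12% were lower with such a p. Hmox1, the enzyme that releases iron from heme, gave 7.89, 8.15 and 7.86 in CR-CD, against 8.05, 7.58 and 7.16 in CD-CD, a log2 fold change of 0.37 with a 95% interval of -0.13 to 0.88. CD-CD replicate 1 lay within the CR-CD range and the other CD-CD arrays lay below it.

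The inflammatory route to hepcidin was represented by 17 measured genes of 18 listed, of which 0 passed the adjusted p from limma or of the methods' t-test. A single gene, Il6ra, was lower in CR-CD by the thresholds of the methods and was also the only one with an unadjusted p under 0.05 from limma. Over all genes 0.757% were lower by those thresholds and 3.12% with such a p. Il6ra, the receptor for interleukin 6, gave 8.39, 8.16 and 7.97 in CR-CD, against 8.84, 8.64 and 8.94 in CD-CD. The groups did not overlap, and the log2 fold change was -0.64 (standard error 0.13, adjusted p = 0.106 from limma). No other gene of the 17 was without overlap, and 5.77% of all genes were lower without overlap. Stat3, which carries the interleukin 6 signal, gave 9.67, 9.87 and 9.69 in CR-CD, against 10.58, 9.60 and 9.64 in CD-CD, and Socs3, its feedback inhibitor, gave 6.63, 6.53 and 6.33 against 7.37, 6.65 and 6.48. For both genes CD-CD replicate 1 was the highest array. The CR-CD arrays of Stat3 lay above the other 2 CD-CD arrays, and those of Socs3 overlapped them.

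Saa2, Lcn2 and Orm1, acute-phase genes that hepatocytes raise in inflammation, were picked after their values were seen. In these genes replicate 1 stood apart in both groups. Saa2, a serum amyloid A gene, gave 12.52, 9.83 and 9.98 in CR-CD, against 13.17, 9.40 and 8.10 in CD-CD. Lcn2, the siderophore-binding lipocalin, gave 10.09, 7.94 and 8.15 in CR-CD, against 10.75, 7.57 and 7.09 in CD-CD. Orm1, an acid glycoprotein, gave 11.58, 10.92 and 11.03 in CR-CD, against 12.31, 10.82 and 10.61 in CD-CD. Replicate 1 was the highest array of each group for all 3 genes, and the same arrays held the lowest Hamp2 signals. Of the other acute-phase genes on the inflammatory list, Saa3 and Fgg were also highest on replicate 1 of each group. In CR-CD their margins were small, with 7.35, 7.06 and 6.95 for Saa3 and 12.77, 12.64 and 12.51 for Fgg. Crp went the other way in CR-CD, with 11.38, 11.61 and 11.52, against 11.83, 11.36 and 11.22 in CD-CD. For Hamp, the CR-CD replicate 1 value of 12.49 was the highest of its group and the CD-CD replicate 1 value of 12.91 the lowest of its group. Without both replicate 1 arrays, an alternative chosen after seeing the data, the log2 fold change of Hamp was -0.93 (adjusted p = 0.00846 from limma). That of Id3 was then -0.84 (adjusted p = 0.0466) and that of Il6ra -0.73 (adjusted p = 0.0718). Over all genes 384 then passed, against 329 with all arrays, and nothing is read from these values. The part of the acute-phase state in these results was not tested.

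**Figure D4:**
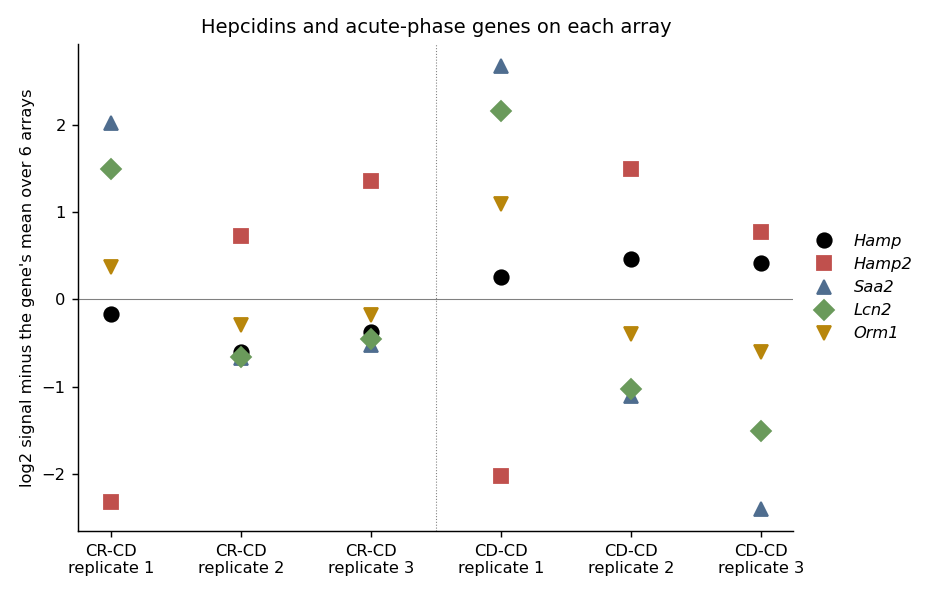
Log2 signal of Hamp, Hamp2 and the acute-phase genes Saa2, Lcn2 and Orm1 on each array, minus the mean of that gene over the 6 arrays, with CR-CD arrays left of the dotted line and CD-CD arrays right of it. Replicate 1 of both groups is high for Saa2, Lcn2 and Orm1 and low for Hamp2. Hamp is below its mean on all CR-CD arrays and above it on all CD-CD arrays.

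The 5 genes whose signal was most like that of Hamp over the 6 arrays, among 11090 genes brighter than the median gene, were Rac1 (Pearson r = 0.991), Pcnx3 (0.99), Slc35d1 (0.985), Zfp36l1 (0.983) and Map3k7 (0.983). Slc35d1 carried longer-format values. All 5 had a lower mean in CR-CD, from 7.10 in CR-CD against 7.25 in CD-CD for Pcnx3 to 8.91 in CR-CD against 9.92 in CD-CD for Slc35d1. Over only 6 arrays that share the group difference, 224 of these genes exceeded r = 0.9, and the likeness is a description.

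In bulk liver, fewer cells of a type and less RNA per cell cannot be told apart. The 6 markers of hepatocytes, the source of Hamp, had log2 fold changes between -0.04 and 0.07, and their summed linear signal ranged from 37976 to 41360 in CR-CD, against 36672 to 41573 in CD-CD. Kupffer cells, the macrophages of the liver, express ferroportin and recycle iron. All 7 of their markers were above 0 in log2 fold change, from 0.43 to 0.97 with a median of 0.62, and their summed signal was 2269 to 3643 in CR-CD, against 1317 to 1922 in CD-CD. By limma or the methods' t-test 0 passed the adjusted p, while 5 had an unadjusted p under 0.05 from limma, 3 passed the thresholds of the methods, and 5 were higher without overlap of the groups. Over all genes 3.26% were higher with such a p, 0.911% by the thresholds of the methods and 5.63% without overlap. Without both replicate 1 arrays, an alternative chosen after seeing the data, their median was 0.84, and medians of other marker lists given below also moved. Clec4f, a lectin found on Kupffer cells, gave 9.07, 9.60 and 9.29 in CR-CD, against 8.88, 8.83 and 8.59 in CD-CD. Slc40a1 and Clec4f had the same order of arrays in CR-CD, with replicate 1 lowest and replicate 2 highest, while in CD-CD the lowest Slc40a1 signal was that of replicate 1 and the lowest Clec4f signal that of replicate 3. The part of these cells in the Slc40a1 value was not tested. The 6 endothelial markers, of the cells that make Bmp6, had a median of 0.06, and 0 of them stood apart between the groups. Without both replicate 1 arrays all 6 were above 0, with a median of 0.22. Stellate cell, bile duct and leukocyte markers had medians of 0.05, 0.06 and -0.03, and -0.09, 0.13 and 0.06 without both replicate 1 arrays. Of 4 leukocyte markers 3 were measured. The bile duct marker Epcam, below the median over genes on every array, was higher without overlap, as were 5.63% of all genes. Of 6 erythroid and blood markers only 1, Slc4a1, was measured (log2 fold change 0.05), so the blood content of the samples was not assessed.

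**Figure D5:**
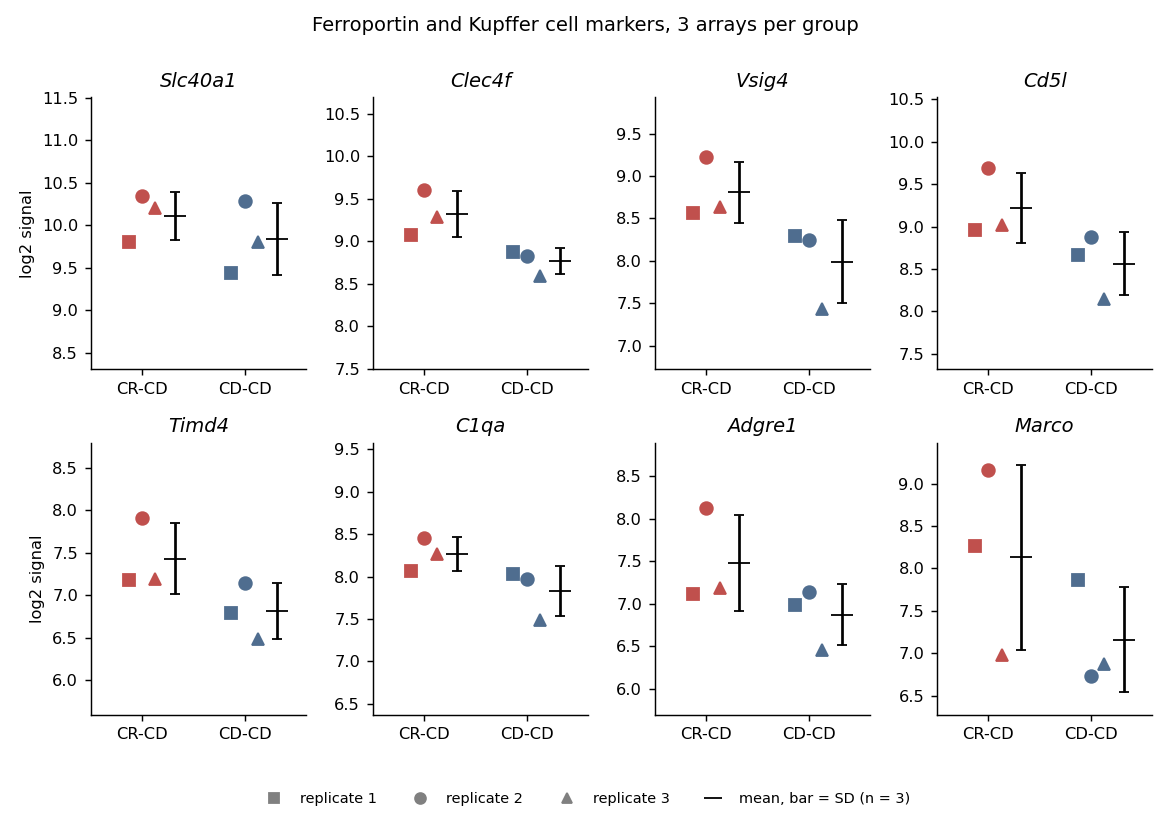
Log2 signal of Slc40a1 (ferroportin) and the 7 Kupffer cell markers on each array, CR-CD on the left and CD-CD on the right, with the mean and SD of 3 arrays beside the points. Each panel spans 3.2 log2 units. Clec4f, Vsig4, Cd5l, Timd4 and C1qa are higher on every CR-CD array than on any CD-CD array, while Slc40a1, Adgre1 and Marco overlap.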

How the data were processed

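Liver RNA of 32-week-old male offspring was measured on 6 arrays, 3 per group. Deposited log2 signals had been normalized by the authors in GeneSpring 12.5; the summarization of probes and the genome build are not given in the sources used here. The table holds 33793 probe sets and 0 missing values. Symbols came from the platform annotation, 23521 probe sets had exactly 1, and the brightest of a gene's probe sets was used (22180 genes). A value was called longer in format where it was not the shortest decimal of a single-precision number. The fit used limma 3.58.1 (R 4.3.3; lmFit, then eBayes, with 4 residual and 2.98 prior degrees of freedom). The Benjamini-Hochberg adjustment ran across the 22180 genes. The number of arrays limits the precision.

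The members and lists were chosen with earlier results of these data known. Named genes were all members, regulators and iron genes fixed by role, any list gene past either threshold, and the 5 genes most correlated with Hamp. Furin, Smad5, Smad9, Bambi, Id4, Cpox, Flvcr2, Lrp1, Saa2, Lcn2, Orm1, Saa3, Fgg, Crp and the markers named were chosen after their values were seen. Deviations of same-numbered arrays from the means of their groups had r across genes of 0.407, 0.208 and 0.201, each above the limit of 0.1. The crossed pairs of replicates 2 and 3 gave 0.107 and 0.261. Deviations cancel out within a group, so a close match of the replicate 1 arrays alone raises r among the remaining arrays. The limit therefore could not decide how replicates 2 and 3 pair. The labels give no pairing, and this pattern in the data is the only source of the block. The test was run on simulated data with independent normal values for each array, and its outcome is not given here. Such data cannot speak to the pairing of arrays or to the longer format. Promoters were read from RefSeq GRCm38.p6 and aligned with Biopython 1.88. Drawings were made with matplotlib 3.10.9. Results were recomputed after quantile normalization or median centring, with a trended and robust variance, by the methods' t-test, with genes under the 40th percentile of brightness left out, over all probe sets or their mean per gene, without longer-format probe sets, with a replicate block and without each array.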

Additional observations from a re-analysis of the deposited data

How the results depend on the processing

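Hfe kept its direction and its side of the threshold in all 15 alternatives that could be fitted, and none was possible without longer-format probe sets. Hamp was lower in CR-CD in all 16 and past the adjusted p in 9. The log2 fold change of Hamp was -0.76 by the methods' t-test (adjusted p = 0.293), without longer-format probe sets (0.884, with an unadjusted p of 4.41e-04 as before and fewer small p-values to adjust over) and with the replicate block (0.0729). The replicate block called 339 genes against 329 without it and changed no other call among the members. Leaving out 1 array in turn gave Hamp log2 fold changes from -0.87 to -0.65, and between 1 and 3 members past the adjusted p, 2 and 3 past the thresholds of the methods and 2 and 4 without overlap. Of the members, 1 passed the adjusted p by the methods' t-test and 1 with the replicate block. Without longer-format probe sets 0 of all genes and 0 members passed the adjusted p, 1 member passed the thresholds of the methods and 1 did not overlap. Without both replicate 1 arrays, an alternative chosen after seeing the data, 4 members passed the thresholds of the methods, 5 did not overlap and Tfr2 was reversed at 0.0599. Groups of fewer arrays are apart more often in any gene, and the shares over all genes under these alternatives are not given. Nothing is therefore read from the higher counts when arrays were left out.

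The sign of genes that did not pass changed when an array was left out, for Hamp2 (-1.21 to 0.96), Tfr2 (-0.0487 to 0.0551) and Bmp6 (-0.18 to 0.15). Smad7 passed in 2 alternatives. No alternative could be computed for Trf. Where the construction of an alternative does not show it, the cause was not tested. With 3 arrays per group, small changes in these genes were not detectable.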
